A study of Mus musculus with 3 samples.

Results

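The genes described here are those of cholesterol and fatty acid synthesis together with the SREBPs (sterol regulatory element-binding proteins) and their regulators, called members below. They were chosen by symbol from a list of 30, all of which matched a protein-coding gene of GENCODE M21, out of 21951 such genes. By role they fall into 8 enzymes that lead from acetyl-CoA to squalene (Acat2, Hmgcs1, Mvk, Pmvk, Mvd, Idi1, Fdps and Fdft1), 10 that lead from squalene to cholesterol (Sqle, Lss, Cyp51, Tm7sf2, Msmo1, Nsdhl, Hsd17b7, Ebp, Sc5d and Dhcr7), 6 regulators of the pathway including a sterol carrier (Srebf1, Srebf2, Scap, Insig1, Insig2 and Stard4) and 6 enzymes of fatty acid synthesis (Acly, Acaca, Fasn, Elovl6, Scd1 and Scd2). The study performed chromatin immunoprecipitation followed by sequencing (ChIP-seq) on cerebral cortices of E13.5 (embryonic day) mouse embryos, with an antibody to the NF-YC subunit (NF-Y-ChIP), an antibody to histone H3 trimethylated at lysine 4 (H3K4me3-ChIP) and no antibody (Input). There was 1 library of each. The labels give no genotype, strain or number of pooled cortices, and the methods for ChIP do not either. Elsewhere in the methods, E13.5 cortices for Western blotting came from B6 embryos. The peak lists hold 733 NF-Y-ChIP peaks and 18816 H3K4me3-ChIP peaks, and they carry no read counts, so the depth behind a peak is unknown and no test between conditions was possible.

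NF-Y is a transcription factor present in most cell types. NF-YC is one of its subunits, and the assembled complex binds the sequence CCAAT, which reads ATTGG on the opposite strand. SREBP proteins, encoded by Srebf1 and Srebf2, are held in the endoplasmic reticulum by SCAP and the INSIG proteins while sterols are plentiful. When sterols fall they are cut and move to the nucleus, where they bind sterol regulatory elements in the promoters of these genes, often beside NF-Y and the GC-box factor SP1. H3K4me3 is a histone mark found around transcription start sites (TSSs) of active genes. Neural cells come to make most of their own cholesterol as the blood-brain barrier forms.

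Marker genes of the cortex and of other cells were looked up in the H3K4me3-ChIP list. The 7 markers of cortical progenitors and neurons given here (Emx1, Pax6, Sox2, Eomes, Tbr1, Neurod6 and Tubb3) had an H3K4me3-ChIP peak, from 4.61-fold at Neurod6 to 50.6-fold at Tubb3. Over all protein-coding genes 62.7% had one. The genes of the ganglionic eminence, which lies beside the cortex, also had peaks, of 47-fold for Dlx2, 16.2-fold for Lhx6 and 6.64-fold for Nkx2-1. Dlx2 thus stood above 6 of the 7 cortical markers, and these peaks did not tell cortex from ganglionic eminence. Among 6 markers of other cells the tissue could hold, Cldn5 of endothelium (9.38-fold), Col1a1 (4.76-fold) and Col1a2 (6.52-fold) of mesenchyme had a peak, and Pecam1, Aif1 and Cx3cr1 had none. The liver, muscle, T cell and islet genes Alb, Myod1, Cd3e and Ins2 had none. In whole tissue, fewer cells carrying a mark and less of the mark in each cell cannot be told apart.

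NF-Y-ChIP peaks lay at 7 of the 30 genes, beside a background of 3.17% of all protein-coding genes. These were Mvk (mevalonate kinase) and Fdft1 (squalene synthase) of the early pathway, Msmo1 (methylsterol monooxygenase), Hsd17b7 (a ketosteroid reductase of sterol demethylation) and Dhcr7 (the reductase that makes cholesterol in the last step) of the late pathway, Srebf2, which encodes the SREBP that acts mainly on sterol synthesis, and Stard4, a cytosolic sterol carrier. A gene was counted when the summit of a peak, its point of highest signal, lay within 1000 bp of any annotated TSS. Part of the bound region at 6 of them was read from the reference genome (GRCm38) to show the CCAAT boxes, which are in capitals in either orientation. The stretches are written 5′ to 3′ on the strand of the gene. That of Mvk is chr5:114444071-114444268 (+ strand) and holds all 5 boxes within 100 bp of the summit, that of Hsd17b7 is chr1:169969249-169969395 (- strand) with 2 boxes, and that of Srebf2 is chr15:82147109-82147163 (+ strand) with its only box. All of these lie upstream of the nearest TSS. At Fdft1, chr14:63177996-63178025 (- strand), Msmo1, chr8:64733658-64733687 (- strand), and Dhcr7, chr7:143830117-143830146 (+ strand), the 30 bases around the box nearest to the summit are given, since the annotation places an untranslated region there.
Mvk: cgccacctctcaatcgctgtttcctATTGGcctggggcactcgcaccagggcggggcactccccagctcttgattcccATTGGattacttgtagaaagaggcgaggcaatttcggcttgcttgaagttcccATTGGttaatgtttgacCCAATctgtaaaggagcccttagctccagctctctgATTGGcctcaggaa
Fdft1: cctccggcttccgATTGGttaacgttttcc
Msmo1: gccttagcacggaCCAATcactgcacggcg
Hsd17b7: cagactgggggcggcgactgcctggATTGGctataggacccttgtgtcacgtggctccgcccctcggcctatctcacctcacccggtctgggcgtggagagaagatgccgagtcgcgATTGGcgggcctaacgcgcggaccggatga
Dhcr7: tcactgccttcaCCAATcacaggacgcagc
Srebf2: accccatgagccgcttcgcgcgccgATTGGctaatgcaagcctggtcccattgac

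The 7 genes made up 23.3% of the 30 (95% Wilson interval 11.8 to 40.9%). Over all protein-coding genes 695 of 21951 had such a summit, and the share was 5.03% over the 13767 genes that had an H3K4me3-ChIP peak. The intervals given for shares cover counting over genes or peaks only, not the error between libraries, and no test was made. By role, a summit was found at 2 of 8 enzymes up to squalene (25%, interval 7.15 to 59.1%), 3 of 10 enzymes from squalene to cholesterol (30%, 10.8 to 60.3%) and 2 of 6 regulators (33.3%, 9.68 to 70%). Of the 6 fatty acid enzymes, 0 had a summit within 1000 bp, and with so few genes the interval still reaches 39%. The intervals of the 4 roles overlap, so the roles could not be ranked.

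**Figure D1:**
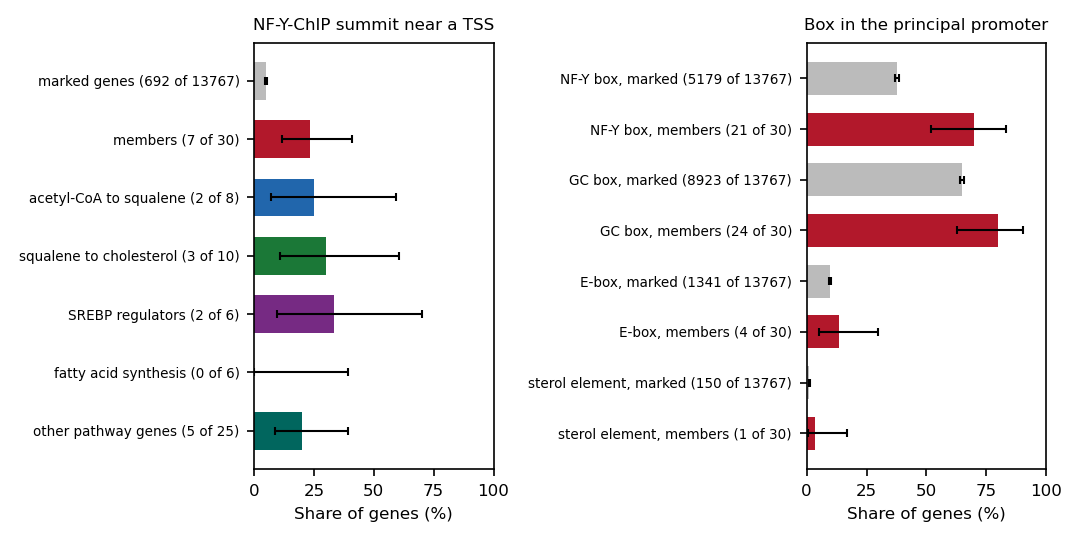
Left, share of genes in percent with an NF-Y-ChIP summit within 1000 bp of a TSS, for marked genes (those with an H3K4me3-ChIP peak), all members, the members by role and other genes of the pathway; right, share with each box in the 250 bp before to 50 bp after the principal TSS. Bars are shares and lines are 95% Wilson intervals from 1 library per antibody; the members stand at 23.3% for NF-Y-ChIP against 5.03% of marked genes.

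Peaks at the 7 genes were of ordinary height within the list. Fold enrichment, the signal at the summit over the local background, had a median of 7.5 (range 5.75 to 8.32) against 6.75 for the whole list, and 3 of the 7 were below that median. Dhcr7 stood highest at 8.32-fold (rank 211 of 733 by fold), next to Msmo1 at 8.31-fold (rank 212). Stard4 followed at 7.63-fold and Mvk at 7.5-fold. Hsd17b7 (5.96-fold), Fdft1 (5.79-fold) and Srebf2 (5.75-fold, rank 497) formed a lower set. The −log10 q that MACS2 gave was highest at Dhcr7 (17.1) and Stard4 (14.2) and lowest at Hsd17b7 (4.34). The member peaks had a median width of 272 bp (223 to 317) against 224 bp for the list.

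**Figure D2:**
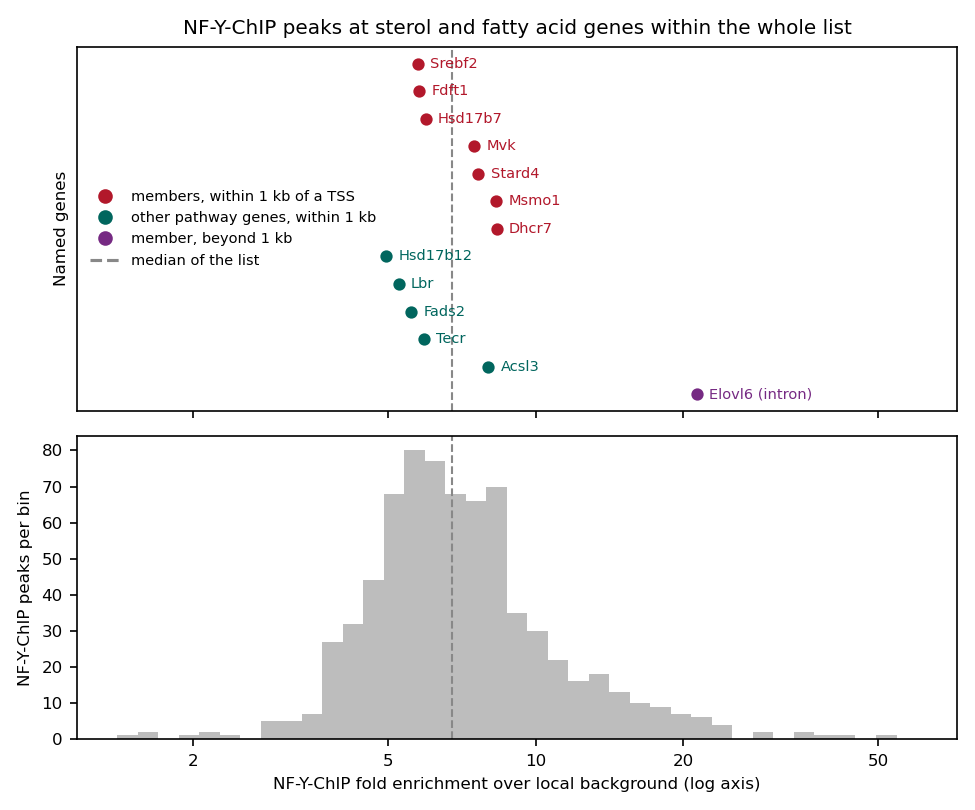
NF-Y-ChIP fold enrichment (log axis) of the peaks at members and at other pathway genes (points, above) and of all 733 peaks as peaks per bin (below), from 1 library. The dashed line is the list median of 6.75; 4 of the 7 members lie above it, and the peak in an intron of Elovl6 reaches 21.3.

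The summits lay close to the start sites, as they did over the whole list. Their median position was −80 bp from the nearest TSS, against −63 bp over all protein-coding genes with a summit (middle 50% from −125 to −24.2 bp), of which 86.3% had it upstream. Upstream of the nearest TSS lay 5 of the 7, at 58 bp in Stard4, 80 bp in Hsd17b7, 90 bp in Srebf2, 96 bp in Mvk and 219 bp in Fdft1, the farthest member inside the 1000 bp limit. Msmo1 had its summit 94 bp downstream of its TSS, in the 5′ untranslated region. At Dhcr7 the summit lay 50 bp downstream of an internal TSS, itself 6910 bp downstream of the start of the principal transcript, and a separate H3K4me3-ChIP peak covered each of these starts. The Fdft1 summit fell within an exon of a transcript that begins farther upstream.

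Every one of the 7 member peaks held a CCAAT box within 50 bp of its summit, against a background of 88.3% over the 732 peaks on nuclear chromosomes. Within 25 bp the order turned, with 4 of 7 member peaks (57.1%) against 72.7% of the list. Mvk had the most, with 5 boxes within 100 bp, their centres 53, 53, 17 and 36 bp apart. Fdft1 had 4 boxes spaced 32, 50 and 35 bp apart, and Msmo1 had 3 spaced 64 and 41 bp apart. The 2 boxes of Stard4 stood 31 bp apart, those of Dhcr7 36 bp and those of Hsd17b7 92 bp, while Srebf2 had 1. At least 2 boxes within 100 bp were thus present in 6 of 7 member peaks (85.7%, interval 48.7 to 97.4%) and in 64.3% of the list. The box nearest to the summit was centred 4 bp away in Dhcr7, 6 bp in Fdft1 and Stard4, 22 bp in Mvk, 26 bp in Msmo1 and 45 bp in Hsd17b7 and Srebf2.

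**Figure D3:**
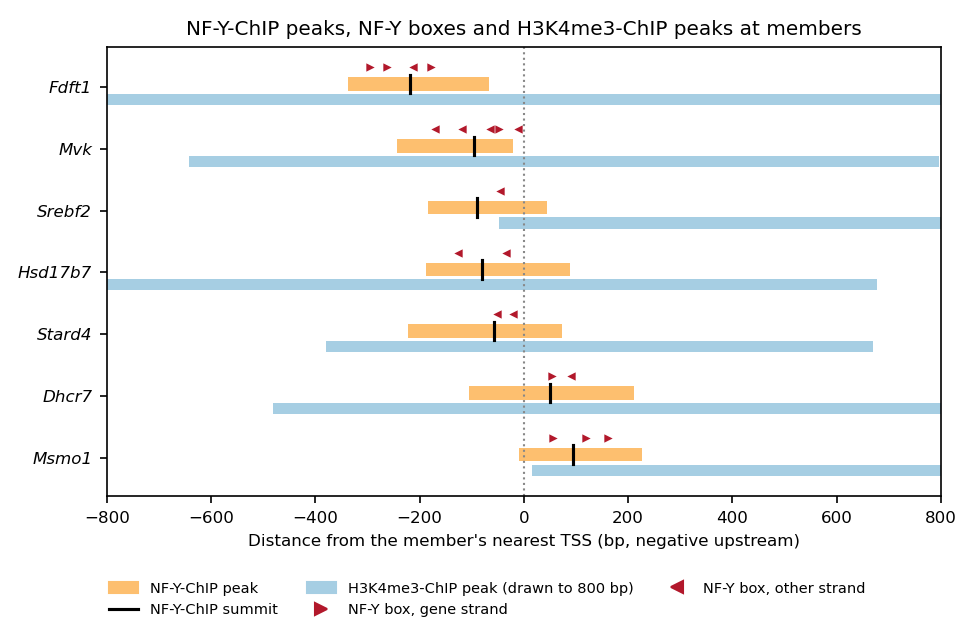
NF-Y-ChIP peaks (orange, summit in black), H3K4me3-ChIP peaks (blue) and NF-Y boxes within 100 bp of the summit (red arrows, pointing right on the gene strand and left on the other) at the 7 members, by distance in bp from the nearest TSS, 1 library per antibody. The summits lie between 219 bp upstream (Fdft1) and 94 bp downstream (Msmo1), and each peak overlaps an H3K4me3-ChIP peak.

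Mvk shares its start region with Mmab, which encodes an enzyme of cobalamin metabolism. Mmab starts 209 bp away on the opposite strand, and the summit lay between the starts, 96 bp upstream of Mvk and 113 bp upstream of Mmab. Hsd17b7 has the antisense transcript 3110045C21Rik 168 bp from its start, with the summit 88 bp upstream of that transcript. A summit that also served another protein-coding gene was found for 1 of 7 members and for 27.1% of all 695 bound genes. Peaks do not show which of the neighbouring genes, if either, is affected.

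All 7 NF-Y-ChIP peaks overlapped an H3K4me3-ChIP peak, as did 88% of the whole list (645 of 733). In 6 of them the H3K4me3 summit lay downstream of the NF-Y summit in the direction of the gene, as in 78.5% of the 693 such overlaps at all protein-coding genes. It did so by 189 bp in Stard4, 218 bp in Msmo1, 275 bp in Fdft1, 277 bp in Mvk, 290 bp in Hsd17b7 and 839 bp in Srebf2. At Dhcr7 it lay upstream (−268 bp). In the overlapping peaks the H3K4me3 fold enrichment ranged from 32.3 at Dhcr7 to 73.3 at Msmo1.

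For the 23 genes with no summit within 1000 bp, the nearest summit lay at a median distance of 709381 bp, against 911827 bp over all protein-coding genes without one that had a summit on their chromosome. It lay over 100000 bp away for 18 of the 23 (78.3%) and for 87.9% of those genes. Elovl6, which elongates palmitate to stearate, had the nearest. Its peak at chr3:129536232-129536551 lay in an intron, 3662 bp downstream of the nearest Elovl6 TSS and 4034 bp downstream of the principal one. The closest start of any annotated gene, 1752 bp from the summit, was that of Gm43072, and Elovl6 was the closest protein-coding gene. The peak had a fold enrichment of 21.3 (rank 16 of 733) and a −log10 q of 45.5, above every member peak inside the limit. It held 2 CCAAT boxes within 50 bp of the summit, the nearer of them 2 bp away, and overlapped an H3K4me3-ChIP peak of 6.78-fold, separate from the 64.1-fold peak at the Elovl6 start. The bases around its summit, chr3:129536339-129536439 (+ strand) of GRCm38, show both boxes in capitals.
Elovl6: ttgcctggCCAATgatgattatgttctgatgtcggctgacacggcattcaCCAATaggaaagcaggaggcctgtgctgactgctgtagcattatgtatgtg

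Next came Fdps (farnesyl diphosphate synthase), whose nearest summit lay beyond the end of the gene, 5631 bp downstream of its nearest annotated TSS and 11911 bp downstream of the principal one, and 3 bp from the TSS of Rusc1 with 6.18-fold enrichment. Scd1, a stearoyl-CoA desaturase, had a weak peak 18087 bp downstream of its nearest TSS (3.48-fold, q of 0.263). Its paralogue Scd2 had a pair of peaks upstream, at −26567 bp with 5.56-fold and at −45245 bp with 11.6-fold enrichment (rank 93). The latter was closer to Scd3, whose TSS was 10614 bp from the summit, and to the antisense gene AC125101.1, 1859 bp away. The former lay 5164 bp from the start of a pseudogene, AC123853.2. The nearest peak to Pmvk, at −36183 bp, was at the start of Cks1b, 25 bp from its TSS. Under the rule of the study, by which a gene is a target if a peak lies inside it or within 5 kb upstream, 8 of the 30 were targets (26.7%, interval 14.2 to 44.4%), the 7 above and Elovl6, against 3.69% of all protein-coding genes.

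H3K4me3-ChIP peaks were present at all 30 genes (interval 88.6 to 100%), where the background was 62.7% of protein-coding genes. For this mark a gene was counted when any base of a peak lay within 1000 bp of a TSS, and the strongest such peak gives its value. The median fold enrichment was 43.2 (interval of the median 29.4 to 48.3), against 39.9 for all marked genes (middle 50% from 25.7 to 52.7), and 16 of 30 members were above 39.9. Values ran from 19.1 at Lss to 79.8 at Cyp51, with 9 members above the upper quartile of marked genes and 4 below the lower.

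**Figure D4:**
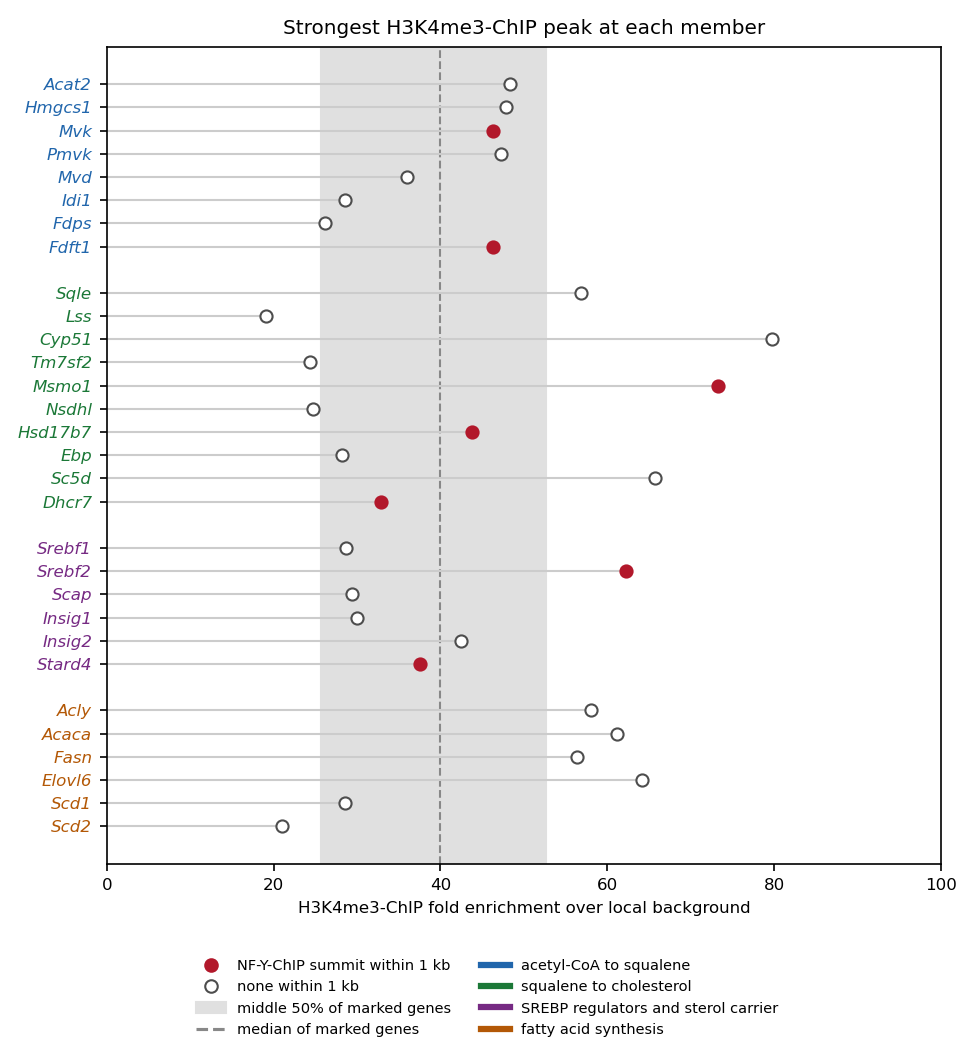
Fold enrichment of the strongest H3K4me3-ChIP peak at each of the 30 members, grouped by role, from 1 library. Filled points have an NF-Y-ChIP summit within 1000 bp and open points have none; the dashed line (39.9) and band (25.7 to 52.7) are the median and middle 50% of 13767 marked genes, and both kinds of point lie on either side of the line.

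Among the enzymes up to squalene, the median was 46.3-fold and 5 of 8 were above the median of marked genes. Acat2 (acetyl-CoA acetyltransferase) stood at 48.3-fold, Hmgcs1 (HMG-CoA synthase) at 47.9, Pmvk (phosphomevalonate kinase) at 47.2, and Mvk and Fdft1 at 46.3 each. Mvd (mevalonate diphosphate decarboxylase) at 36-fold, Idi1 (isopentenyl diphosphate isomerase) at 28.6 and Fdps at 26.2 made up a lower set of 3. These 8 did not reach above the upper quartile of marked genes or below the lower.

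From squalene to cholesterol the values were spread most widely, about a median of 38.4. Cyp51, the lanosterol demethylase, had the highest value of all 30 members, 79.8-fold, which is the 99.1 percentile of marked genes. Msmo1 at 73.3 (96.8 percentile), Sc5d (a sterol desaturase) at 65.7 and Sqle (squalene epoxidase) at 56.9 were also above the upper quartile. At the other end, Lss (lanosterol synthase) had the lowest value of the 30, 19.1-fold, and Tm7sf2 (a sterol reductase, 24.4) and Nsdhl (a sterol dehydrogenase, 24.7) were below the lower quartile. Hsd17b7 at 43.8, Dhcr7 at 32.9 and Ebp (a sterol isomerase) at 28.2 lay between them. In the order in which these 10 enzymes are listed above, which follows the pathway, each gene above 39.9 was followed by one below it, an order noticed in these values and not tested.

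The regulators had a median of 33.7. Srebf2 led with 62.2-fold and Insig2 followed at 42.5, while Stard4 (37.5), Insig1 (30), Scap (29.4) and Srebf1 (28.7) were below the median of marked genes. Fatty acid enzymes had the highest median of the 4 roles, 57.2, in 2 separate sets. Elovl6 at 64.1, Acaca (acetyl-CoA carboxylase) at 61.2, Acly (ATP citrate lyase) at 58 and Fasn (fatty acid synthase) at 56.4 were all above the upper quartile, and the desaturases Scd1 at 28.6 and Scd2 at 21 were well under them. With 6 to 10 genes in each role the ranges overlap.

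Width gave another order. Scd2, with nearly the lowest fold, had the widest peak of the 30, 4483 bp (99.3 percentile of marked genes), and Sqle had 3079 bp. The fatty acid enzymes had a median width of 2566 bp, the regulators 1268 bp, the early enzymes 1306 bp and the late enzymes 1528 bp. Over all members the median was 1528 bp against 1404 bp for marked genes. Srebf1 had the narrowest strongest peak, 710 bp.

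More than 1 H3K4me3-ChIP peak was found at 7 of the 30 genes (23.3%) and at 14.8% of marked genes, and in 3 of these the peaks marked separate starts. Dhcr7 had nearly equal peaks at its principal (32.9-fold) and internal (32.3-fold) starts, and of the pair only the internal one held an NF-Y-ChIP peak. At Srebf1 the peak at the principal start was 28.7-fold, with a further 15.8-fold peak 10360 bp downstream and a 7.08-fold peak upstream at −2149 bp. Acaca had no peak at its principal start but had a 61.2-fold peak at −65989 bp and a 44-fold peak at −15285 bp from it. Insig2, with a single peak, had it 5034 bp downstream of the principal start. Hmgcs1, Mvd and Fdps each had a weaker peak upstream of the one at the principal start. Msmo1 had a 5.21-fold peak upstream of its 73.3-fold one and a 4.56-fold peak whose summit lay 1660 bp downstream of the principal start.

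Genes with an NF-Y-ChIP summit had a median H3K4me3 fold of 46.3 (range 32.9 to 73.3, n = 7) and those without had 36 (19.1 to 79.8, n = 23). The ranges overlap, and the highest value, Cyp51, had no NF-Y-ChIP peak. Over all marked genes the medians were 46.7 with a summit (n = 692) and 39.4 without (n = 13075). The H3K4me3 summit was downstream of the nearest TSS in 25 of 30 members (83.3%) and 76.5% of marked genes, at a median of 118 bp and 122 bp.

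Promoter sequence was read next, as the 250 bp before to 50 bp after the TSS of the principal transcript. It was searched on both strands for CCAAT, for the sterol-element-like TCACNCCAC, for CACGTG (an E-box) and for GGGCGG (a GC box). CCAAT was present in 21 of 30 members (70%, interval 52.1 to 83.3%), against 38.6% of all protein-coding promoters and 37.6% of marked ones. At least 2 boxes were present in 12 of 30 (40%, 24.6 to 57.7%) and in 13.6% of marked genes. Of those 12, 4 had an NF-Y-ChIP summit (Mvk, Fdft1, Hsd17b7 and Stard4) and 8 had none (Hmgcs1, Mvd, Fdps, Sqle, Nsdhl, Ebp, Insig2 and Fasn). The promoters of 4 of these 8 are shown, with CCAAT boxes in capitals, and in Hmgcs1 also the sterol-element-like match, to set beside the bound ones. They are chr13:119690199-119690378 (+ strand), chr15:59314901-59314989 (+ strand), chrX:72918412-72918548 (+ strand) and chr11:120824587-120824652 (- strand) of GRCm38, on the strand of the gene.
Hmgcs1: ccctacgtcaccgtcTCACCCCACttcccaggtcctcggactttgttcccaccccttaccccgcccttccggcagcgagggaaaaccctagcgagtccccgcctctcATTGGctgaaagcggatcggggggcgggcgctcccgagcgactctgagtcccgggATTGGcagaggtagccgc
Sqle: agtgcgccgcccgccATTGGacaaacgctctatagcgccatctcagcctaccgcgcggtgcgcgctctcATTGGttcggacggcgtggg
Nsdhl: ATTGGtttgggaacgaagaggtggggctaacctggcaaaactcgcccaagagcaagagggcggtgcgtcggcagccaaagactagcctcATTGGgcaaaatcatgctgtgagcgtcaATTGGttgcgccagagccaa
Fasn: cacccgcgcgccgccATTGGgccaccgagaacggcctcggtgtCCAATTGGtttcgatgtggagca

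In Fasn a pair of boxes overlaps head to head, and Nsdhl holds 3 of its 4 boxes in the stretch shown. An NF-Y-ChIP summit was present at 6 of the 21 members with a CCAAT box in this promoter (28.6%, interval 13.8 to 50%) and at 11.2% of marked genes with one. Of these 6, Msmo1 held its only promoter box at −161 to −157 bp, whereas its summit lay 94 bp downstream of the TSS. The boxes near that summit, centred 56, 120 and 161 bp downstream, fell outside the promoter read here. Among members without a box, 1 of 9 had a summit, Dhcr7 at its internal start, against 1.33% of marked genes. With at least 2 boxes the shares were 33.3% (13.8 to 60.9%) and 22.2%. No CCAAT box was found in the principal promoters of Acat2, Pmvk, Idi1, Dhcr7, Srebf1, Scap, Acaca, Elovl6 and Scd2. A search around every annotated TSS, chosen after seeing the data, found a box for all 30 members and for 66.5% of marked genes, with a median of 4.5 and 5 start sites searched per gene.

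Orientation and place of the boxes were also compared. On the strand of the gene, 29 of the 44 CCAAT boxes in the member promoters were written ATTGG (65.9%, interval 51.1 to 78.1%), as were 49.9% of the 7976 in marked promoters. The boxes of 1 promoter are not independent of each other. Their median place was 84 bp upstream of the TSS in members and 86 bp upstream in marked genes. Cyp51 (20 to 24 bp) and Acly (37 to 41 bp) had their only box downstream of the TSS.

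**Figure D5:**
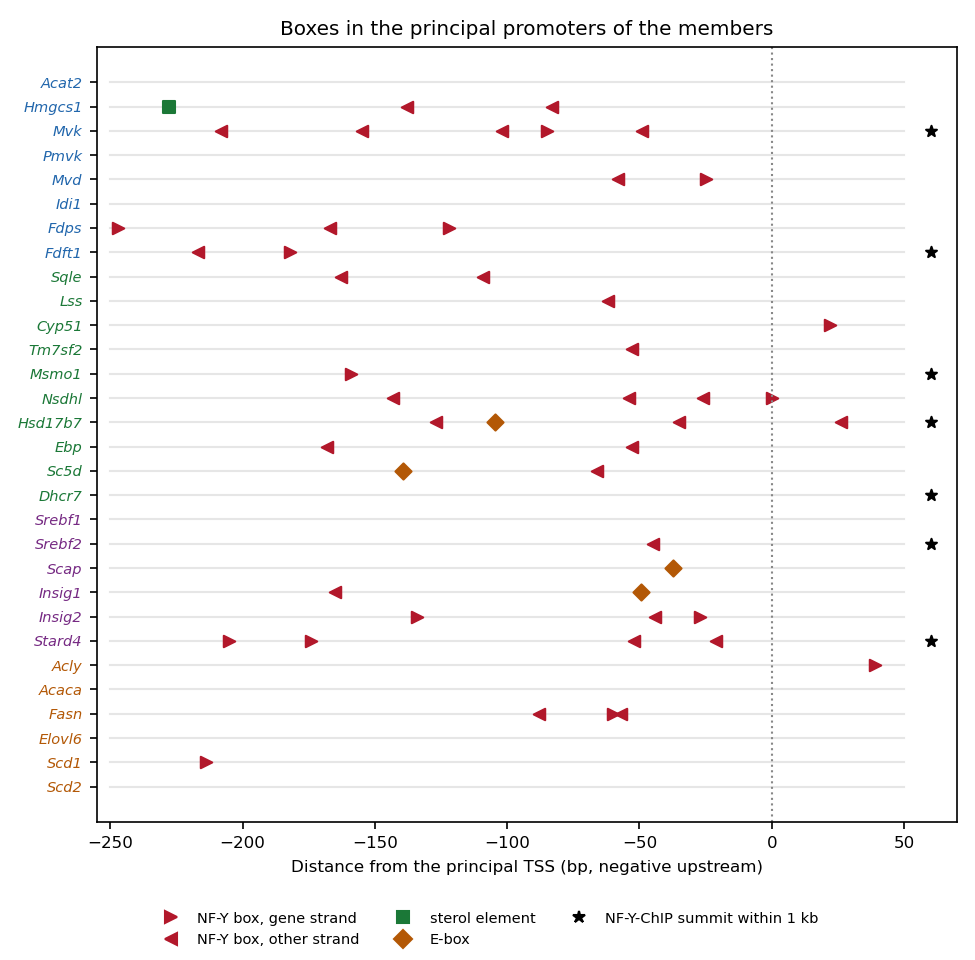
NF-Y boxes (CCAAT, red, arrow to the right on the gene strand and to the left on the other), sterol-element-like matches (green) and E-boxes (orange) from 250 bp before to 50 bp after the principal TSS of the 30 members, by distance in bp. Stars mark the 7 members with an NF-Y-ChIP summit within 1000 bp of any TSS; 21 members hold an NF-Y box and 15 of these have no star.

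The sterol-element-like TCACNCCAC was found in 1 of 30 promoters, that of Hmgcs1, at −232 to −224 bp from the TSS, against 1.2% of all and 1.09% of marked promoters. Its CCAAT boxes followed at −140 to −136 bp and −85 to −81 bp. The shorter CACNCCA, which lies inside the longer form, occurred in 8 members (Acat2, Hmgcs1, Sqle, Msmo1, Srebf2, Insig1, Insig2 and Stard4), and 17.7% of all promoters held it. Of the bound genes, Msmo1, Srebf2 and Stard4 held this shorter form. The E-box CACGTG was present in 4 of 30 (Hsd17b7, Sc5d, Scap and Insig1; 13.3%, interval 5.31 to 29.7%), against 7.72% of all and 9.74% of marked promoters. In Hsd17b7 it stands between the CCAAT boxes, in the bases cacgtg of the sequence printed above. GC boxes were present in 24 of 30 (80%, 62.7 to 90.5%), against 45.3% and 64.8%, and all 7 genes with an NF-Y-ChIP summit were among them, as were 71% of marked genes with a summit. A match is a description of the letters and not a measured site.

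Another 25 genes of sterol and fatty acid handling, which include further enzymes, transporters and the proteases that cut SREBP, gave values near those of the 30. Like the members, these genes were chosen with earlier results of these data known. NF-Y-ChIP summits lay at 5 of 25 (20%, interval 8.86 to 39.1%, beside the same background of 3.17%). Lbr (lamin B receptor, also a sterol reductase) had a 5.25-fold peak 92 bp upstream of its TSS. Acsl3 (an acyl-CoA synthetase) had the highest, 8.01-fold at 30 bp upstream, and that summit lay 243 bp from the start of Utp14b. Hsd17b12 and Tecr, which act with the elongases, had peaks of 4.95-fold and 5.91-fold, and Fads2, a fatty acid desaturase, had one of 5.56-fold. All 25 had an H3K4me3-ChIP peak, against 62.7% of protein-coding genes, with a median of 44.6-fold against 39.9 for marked genes. CCAAT was present in 17 of 25 promoters (68%), against 38.6% of all and 37.6% of marked ones.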

How the data were processed

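ChIP-seq was analysed from the peak lists deposited for the NF-Y-ChIP and H3K4me3-ChIP libraries (1 each) of E13.5 mouse cortex. According to the methods and the submitters' processing notes, reads were trimmed with Trimmomatic and aligned to mm10 (GRCm38) with Bowtie2 2.2.8, and peaks were called per library with MACS2 2.1.2 at a limit of 0.001 on p for NF-Y and 0.05 on q for H3K4me3. The study names the Input as its negative control but does not state that MACS2 was run with it, and Input was not used here. The H3K4me3-ChIP list used here is shorter than the number of regions the study describes, and all overlaps and shares of marked genes rest on it. Per the file layout, the deposited columns are a score, a fold enrichment ratio over local background, and the −log10 p-value and −log10 q-value at the summit. The list files name no antibody, and they were matched to it because the deposited score equals the whole part of 10 times the −log10 p-value throughout one list (733 of 733 peaks), and that of 10 times the −log10 q-value throughout the other (18816 of 18816), as the thresholds require. Fold values are not scaled between the lists. Here TSSs were the 5′ ends of all GENCODE M21 transcripts. An NF-Y-ChIP peak was given to a gene when its summit lay within 1000 bp of a TSS, and an H3K4me3-ChIP peak when any base did. The principal transcript was chosen by APPRIS tag, then support level, then the most 5′ start. All 30 members are named, as are other pathway genes with an NF-Y-ChIP peak and genes whose TSS lies within 1000 bp of a member's summit. Chosen after their values were seen, Rusc1, Cks1b, Scd3, Gm43072, AC125101.1 and AC123853.2 are named too. Sequences came from GRCm38. Shares carry 95% Wilson intervals. With 1 library per antibody no p-value was computed. Assignment and motif search were tested on simulated data and called all 1000 cases right in each of 3 tests. Calculations used pandas 2.3.3, SciPy 1.17.1 and pysam 0.24.0. A marker gene and a promoter sequence are not reported here. The members and gene lists were chosen with earlier results of these data known.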

Additional observations from a re-analysis of the deposited data

How the results depend on the processing

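Of 24 alternative settings, 21 left the value within 1.5 times that reported. Keeping only NF-Y-ChIP peaks at or above the median fold left 4 members (background 371 genes, 1.69%), with Fdft1, Hsd17b7 and Srebf2 lost because their peaks were below it. Narrowing the search for CCAAT to 25 bp from the summit left 4 of 7 member peaks (72.7% of the list), and the shorter CACNCCA raised the sterol-element-like matches from 1 to 8 members (17.7% of all promoters). Taking only the 5′ end of the gene record left 5 members with an NF-Y-ChIP summit, without Dhcr7 and Fdft1 (background 2.87%). Allowing 5000 bp gave 8, with Elovl6 (background 3.65%). Members with an H3K4me3-ChIP peak numbered 25 to 30, while the share of all protein-coding genes with one ran from 45.1% to 62.7%. The median fold of the members ran from 40.6 to 43.2. No paired analysis was possible because there was 1 library per antibody. With no read counts the depth is unknown, so a gene without a peak is only not detected in that list.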
